A study of Mus musculus with 2 samples.

Results

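Junctions with neither flag were the rows of a deposited splice junction table whose names carry the flags A = 0 and C = 0, at an irreproducible discovery rate of 0.1 or less. There were 4523 of them among 515046 junctions in the table and among 164045 junctions within the same limit. Each junction is a gap in the genome, on the build mm9, that reads crossed. The table was made over 2 libraries of polyadenylated RNA of adult C57BL/6J mice aged 8 weeks, whose labelled tissue is gonadal fat pad, a white fat store near the gonads. Both libraries are biological replicates of a single group by their labels, come from pooled males and females and share a donor identifier. No condition was compared. The junctions were chosen by their flags and by the rate, which follows a score tied to the reads, so all read values below are a description and carry no test.

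Most introns are removed by the major spliceosome and begin with GT and end with AG. A minor spliceosome removes a small class of introns with other signals, and a few RNAs, such as that of Xbp1 in the unfolded protein response, are cut and joined outside the spliceosome altogether. Aligners also report gaps where 2 parts of a read match separated places for reasons other than splicing. The names of the table do not say what A and C stand for. Gap lengths gave a check that needs no coordinates. Of gaps over 20 kb with flags A and C, 99.2% had the length of an intron of GENCODE M21 on the same chromosome, against 2.06% when 1 nt was added and 1.80% when 1 nt was taken off. Among junctions with neither flag, 22 of 749 such gaps (2.94%) had an annotated length, against 10 of 749 (1.34%) with 1 nt added and 4 of 749 (0.534%) with 1 nt taken off.

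The limit of 0.1 did not ask for reads in both libraries. The names split the reads into R1 and R2, which the labels do not tie to replicates 1 and 2. Each of the 2557 values of a second score in the table had a single rate. Every junction at a score of 5 or more lay inside the limit, and every junction at 4 or less lay outside it. The meaning of that score is not stated, and it was never above the reads. Of the 4523 junctions, 423 (9.35%) had all their reads in R1 or all in R2, so the word reproducible does not hold for them. R1 alone held the reads of 236 and R2 alone those of 187. Such junctions had a median of 9 reads and between 5 and 432, and 82 of them had 20 reads or more.

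Below 100 reads and at like numbers of reads, junctions with neither flag were more often confined to R1 or R2 than those with flag C. Among junctions of 20 to 49 reads the share was 57 of 716 with neither flag (7.96%, 95% exact binomial interval 6.09 to 10.2), 36 of 3840 with flag C and without A (0.938%, 0.658 to 1.30) and 46 of 28777 with both flags (0.160%, 0.117 to 0.213). Among junctions of 5 to 9 reads the shares were 12.8%, 8.04% and 6.76%. At 50 to 99 reads they were 7.19%, 0.627% and 0.0548%. At 100 reads or more they were 1.12% (0.363 to 2.59), 0.571% (0.230 to 1.17) and 0.00690%, and the first 2 intervals overlap. The few junctions with flag A and without C had 7 of 27 at 5 to 9 reads (25.9%, 11.1 to 46.3) and 7 of 75 at 20 to 49 reads (9.33%, 3.84 to 18.3). Intervals cover counting error only, and junctions of a locus are not independent.

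Inside and outside the limit the values ran on without a step. The 953 junctions just inside it had a rate of 0.064, a median of 6 reads and a highest value of 150. The 1537 with neither flag just outside it had a rate of 0.105, a median of 5 reads and a highest value of 145. All reads lay in R1 or R2 alone in 15.7% of those inside and in 21.2% of those outside. The most-read of those inside spanned chr10:79167328-79439651 with 70 reads in R1 and 80 in R2. The most-read of those outside spanned chr7:130363558-130503843 with 98 and 47. The next 4 on each side had 29 to 40 reads inside and 33 to 108 reads outside. All of these 10 gaps were longer than 100 kb.

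Within the limit, junctions with neither flag were few and shallow, and a few of them held much of the signal. At any rate the table held 204346 with neither flag, of which 2.21% lay within the limit. That share was 14.1% with flag C and without A, 71.4% with flag A and without C and 80.4% with both flags. Those with neither flag made up 2.76% of all junctions within the limit and 0.750% of their reads. They had 150286 reads in R1 and 151296 in R2, from 19172220 and 21609924 reads over the whole table. The median junction had 12 reads, with 6 in R1 and 6 in R2, against 13 with flag C and without A and 70 with both flags. Some 2031 (44.9%) had 10 reads or fewer. The 448 with 100 reads or more held 76.8% of the reads, and the top 10 held 25.8%.

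The highest of all spanned chr7:138452427-138453110 on the minus strand, a gap of 684 nt with 7149 reads in R1 and 8721 in R2. It lay inside a single contig, which is a stretch of continuous read coverage in a second deposited table, at 237 RPKM. The most-read flag C junction on that contig had 24908 reads. Next came chr2:25515654-25516152 on the plus strand, with 8400 and 6516 reads across 499 nt, in a contig at 376 RPKM whose leading flag C junction had 36149 reads. Neither gap shared an end with a flag C junction.

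Other high junctions equalled or passed the flag C junctions around them. At chr1:155751827-155753476 on the plus strand a gap of 1650 nt had 4358 reads in R1 and 3257 in R2, or 119.7% of the 6361 reads of the leading flag C junction of its contig. At chr15:100446154-100447341 on the plus strand 2373 and 5135 reads crossed 1188 nt, while the leading flag C junction had 294. At chr10:90586451-90586659 on the minus strand 3765 and 2944 reads crossed 209 nt, against 5305 for the leading flag C junction. The chr15 junction had 31.6% of its reads in R1, and the chr1 and chr10 junctions had 57.2% and 56.1%.

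Further gaps among the top 10 stood at 30.7% to 94.2% of the leading flag C junction. The gap chr7:30043225-30043444 on the minus strand had 3499 and 2990 reads against 6889. The gap chr14:69236232-69237772 on the minus strand, between a pair of contigs at 29.1 and 29.8 RPKM, had 2201 and 1731 reads against 5231. The shortest of the 10, chr11:58203754-58203789 on the plus strand, skipped 36 nt with 2487 and 2467 reads, and 11 other junctions with neither flag lay within 1 kb of it.

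The remaining members of the top 10 crossed long distances. The gap chr4:121870932-122132563 on the minus strand skipped 261632 nt with 3652 reads in R1 and 1831 in R2, between contigs at 95.2 and 65.4 RPKM. The gap chr12:34505011-34647728 on the minus strand skipped 142718 nt with 2564 and 1696 reads, between contigs at 218 and 190 RPKM. No flag C junction lay on those contigs. The second score of the chr12 junction was 14 for 4260 reads, where the median junction with neither flag had 1.30 reads per unit of that score. At least 10 reads per unit were seen in 10 junctions with neither flag, in 5 with flag C and without A and in 13 with both flags.

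Over all junctions with neither flag, the median was 3.42% of the reads of the leading flag C junction on the same contigs. That figure rests on the 3964 junctions with a flag C junction there, and 599 of them (15.1%) stood above it. For 465 of the 4429 with a flank in a contig, the contigs carried no flag C junction.

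The R1 and R2 reads of single junctions are shown together in the plot of the replicates, where those in a single library line the axes.

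**Figure D1:**
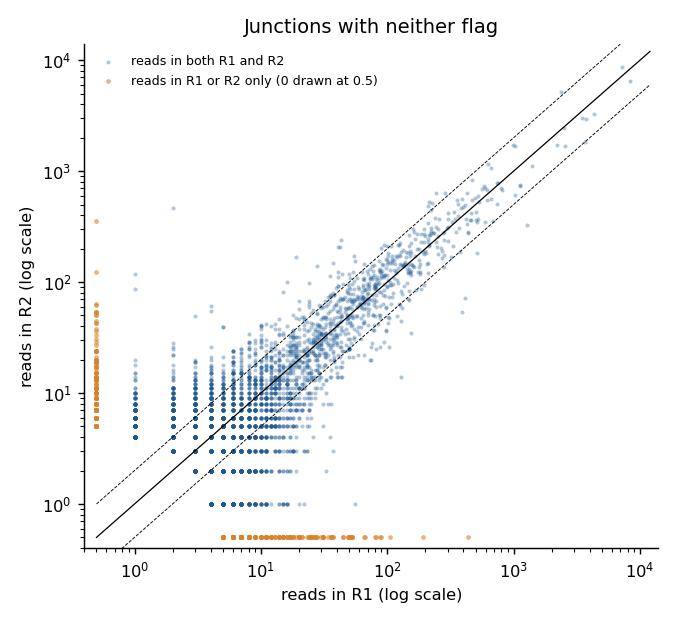
Reads in R1 (x axis) and R2 (y axis), both on log scales, for the 4523 junctions with neither flag, 1 point each; the solid line marks equal reads, the dashed lines mark 2-fold, and a value of 0 is drawn at 0.5. The 423 orange points have reads in R1 or R2 only and reach 432 reads.

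Many junctions with neither flag lay beside a flag C junction without using its ends. Flag C junctions at any rate were used for this, also those outside the limit. In 985 junctions with neither flag (21.8%, 20.6 to 23.0) both ends lay within 10 nt of those of a single flag C junction on the same strand. Such a junction is here called a near copy. For flag C without A it was 2775 of 19199 (14.5%, 14.0 to 15.0). An exact end was shared with a flag C junction in 479 junctions with neither flag (10.6%), against 17569 of those with flag C and without A (91.5%). With flag A and without C it was 109 of 355 (30.7%). Both ends were shared with flag C junctions in 0 of 4523 with neither flag and 0 of 355 with flag A and without C. With flag C and without A it was 7213 (37.6%). Flag C was part of the rule, and how far it sets these contrasts in ends, here and below, was not tested. Within 5 nt, an end of 40.8% of the junctions with neither flag matched.

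Near copies with neither flag differed from their flag C junction mostly by a single nucleotide of gap length. The gap was 1 nt longer in 306 of 985 and 1 nt shorter in 194, so 50.8% differed by 1 nt. Among near copies with flag C and without A the difference was 1 nt in 14 of 2775 (0.505%). There the common differences were 3 nt, in 35.2%, and 4 nt, in 23.4%, against 8.12% and 12.6% among those with neither flag. Alternative splice sites 3 or 4 nt apart are a known form of variation in spliced transcripts. An end was kept in 289 near copies with neither flag (29.3%) and in 2728 of those with flag C and without A (98.3%). In the other 696 with neither flag both ends were moved.

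**Figure D2:**
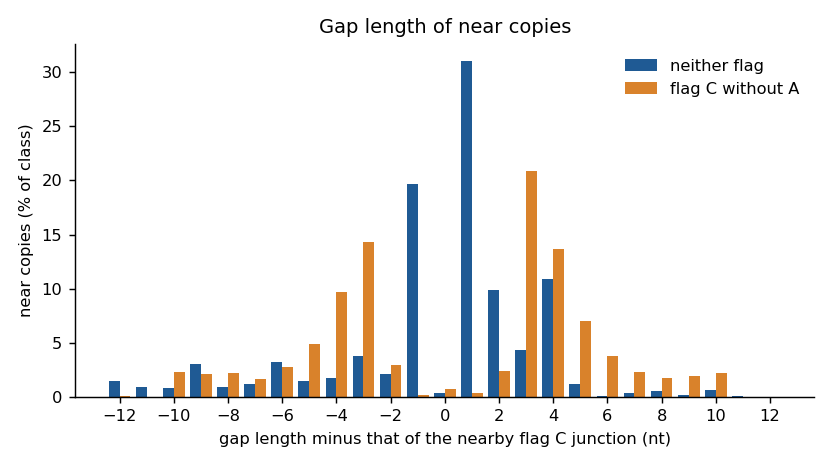
Gap length of each near copy minus that of the flag C junction beside it, in nt (x axis), as a percentage of the near copies of the class (y axis), for neither flag (blue, 985 near copies) and flag C without A (orange, 2775). The blue bars are highest at 1 nt longer and 1 nt shorter (306 and 194 junctions), and the orange bars at differences of 3 and 4 nt.

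Near copies were rare in reads and sat beside abundant junctions. Their median was 11 reads, against a median of 1354 reads of the flag C junction, and 490 of them (49.7%) had under 1% of its reads. The median near copy reached 1.05% (quartiles 0.0531% and 16.7%), against 50.0% for those with flag C and without A. Together the near copies held 16.8% of the reads of all junctions with neither flag. All reads were in R1 or R2 alone in 5.38% of them, against 10.5% of the other 3538 junctions with neither flag. In 165 (16.8%) the near copy had more reads than the flag C junction, with medians of 22 and 2 reads. The highest of these was the chr10 junction of 209 nt above, with 6709 reads beside a flag C junction of 19.

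The share of junctions with flags A and C that had such a near copy climbed with their reads. It was 80 of 82004 at 5 to 99 reads (0.0976%), 191 of 51877 at 100 to 999 reads (0.368%), 133 of 5776 at 1000 to 9999 reads (2.30%) and 180 of 311 at 10000 reads or more (57.9%, 52.2 to 63.4). For near copies with flag C and without A the same shares were 0.518%, 1.43%, 4.16% and 15.1% (11.3 to 19.6). No junction under 5 reads lies within the limit, and the part of this floor in the climb was not tested.

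**Figure D3:**
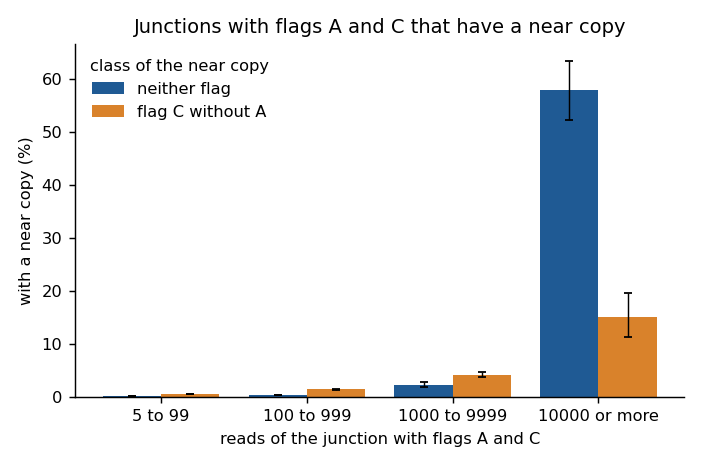
Percentage of junctions with flags A and C that have a near copy within 10 nt at both ends (y axis), by the reads of the junction itself (x axis), for near copies with neither flag (blue) and with flag C and without A (orange); error bars are 95% exact binomial intervals. Above 10000 reads 57.9% had a near copy with neither flag and 15.1% one with flag C and without A.

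The most-read junctions of the table show this one by one, chosen after their values were seen. At chr12:114391587-114391665 on the plus strand, 81682 reads in R1 and 77576 in R2 crossed a gap of 79 nt. Beside it lay 7 near copies with neither flag, with 104 reads in sum (0.0653%), of which 5 were 1 nt longer. At chr14:66598718-66599690 on the plus strand, with 76085 and 64705 reads, 7 near copies held 145 reads (0.103%), 4 of them 1 nt longer and 1 of them 1 nt shorter. At chr10:79354358-79354447 on the plus strand, with 70353 and 56121 reads, 7 held 105 reads (0.0830%). Each of the 10 most-read junctions had between 2 and 7 such near copies, and these held between 0.0524% and 0.115% of its reads.

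Gaps under 50 nt and over 100 kb each took a larger share than in the other classes. For gaps over 10 kb this held against the classes with flag A, but not against flag C without A. The median was 802 nt (quartiles 140.5 and 5075 nt) with neither flag, 1829 nt (502 and 7487 nt) with flag C and without A, and 1283 nt (427 and 3208 nt) with both flags. Gaps under 50 nt made up 262 of the 4523 (5.79%, 5.13 to 6.51), against 19 of 19199 (0.0990%) with flag C and without A and 1 of 139968 with both flags. At the other end 462 gaps were over 100 kb (10.2%, 9.35 to 11.1), against 816 (4.25%) and 468 (0.334%). Gaps over 10 kb made up 915 (20.2%, 19.1 to 21.4), against 21.5% (20.9 to 22.1) with flag C and without A. They were 5.35% with flag A and without C and 8.52% with both flags. The shares of gaps whose length was a multiple of 3 ran from 31.8% to 41.5% over the 6 length classes.

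**Figure D4:**
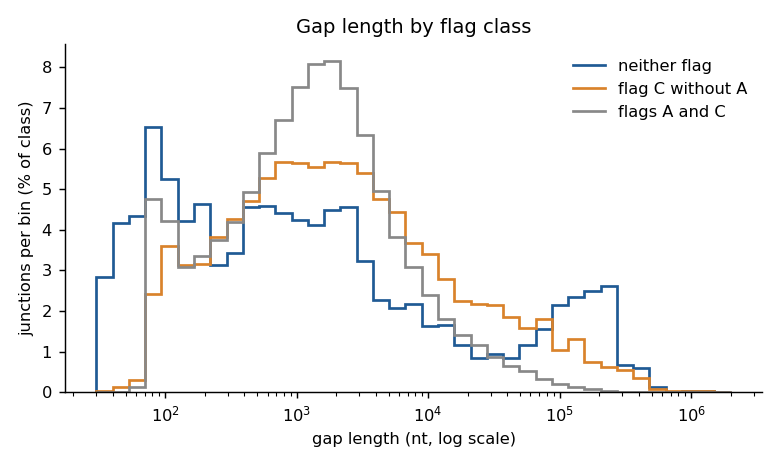
Distribution of gap length in nt (x axis, log scale, 39 equal bins on that scale) as a percentage of each class (y axis), for neither flag (blue), flag C without A (orange) and flags A and C (grey). The blue line lies above the grey line in the bins up to 220 nt and in the occupied bins from 27900 nt. Of the blue junctions, 262 are under 50 nt and 462 are over 100 kb.

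Short gaps lay within continuous coverage. Both flanking bases were in a single contig for 245 of the 262 gaps under 50 nt (93.5%) and for 550 of the 593 gaps of 50 to 99 nt (92.7%). The same held with flag C and without A, for 19 of 19 gaps under 50 nt and 87.9% of those of 50 to 99 nt. With neither flag, near copies of flag C junctions were 6 of the gaps under 50 nt (2.29%), and a shared end was found in 2. The shortest gap in the class was 31 nt. The most-read gap of that length, chr4:131912362-131912392 on the minus strand, had 90 reads in R1 and none in R2. The gap chr14:17072716-17072746 on the minus strand had 1 and 20 reads, and chr5:143206348-143206378 on the minus strand had 10 and 10. The gap chr2:156342632-156342662 on the plus strand had 11 and 7 reads. The gap chr16:11144165-11144195 on the plus strand, with 14 and 3 reads, lay in a contig at 12600 RPKM, the highest level of any contig flanking these junctions. Among gaps under 50 nt 37 (14.1%) were in R1 or R2 only, against 4 of 19 with flag C and without A.

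The share of near copies was highest in gaps from 1 to 10 kb. There were 397 among 1177 (33.7%), and 186 (15.8%) shared an end with a flag C junction. Of the gaps from 100 to 999 nt, which held 45.5% of the reads, 436 of 1576 (27.7%) were near copies. In the same length classes of flag C without A, 14.6% and 17.9% were near copies while 91.9% and 88.8% shared an end.

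Long gaps seldom began or ended where flag C junctions did. Of the 462 gaps over 100 kb, 24 (5.19%) shared an end with a flag C junction, against 780 of 816 (95.6%) with flag C and without A. Both flanks were in contigs for 298 (64.5%, 60.0 to 68.9), against 331 (40.6%, 37.2 to 44.0). At a single gap with neither flag (0.216%) both ends lay within 10 nt of ends of shorter flag C junctions inside the gap, against 562 (68.9%). Long gaps with neither flag came in bundles more often. Of the 462, 74 (16.0%) had another of their class with both ends within 100 nt, against 25 of 816 (3.06%).

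The 5 longest gaps had between 5 and 25 reads, around the class median of 12. The longest, chr12:19251065-20519355 on the plus strand, skipped 1268291 nt with 1 read in R1 and 4 in R2, and was the only gap with neither flag over 1 Mb. From the same start, a gap of 991465 nt ending at 20242529 also had 1 and 4 reads. The gap chr7:17590689-18120281 on the minus strand had 14 and 11 reads. The gaps chr19:5770858-6270007 and chr19:8326768-8821993, both on the minus strand, had 5 and 7 reads and 9 and 8 reads. The second chr19 gap joined a contig at 1650 RPKM to a contig at 0.617 RPKM.

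**Figure D5:**
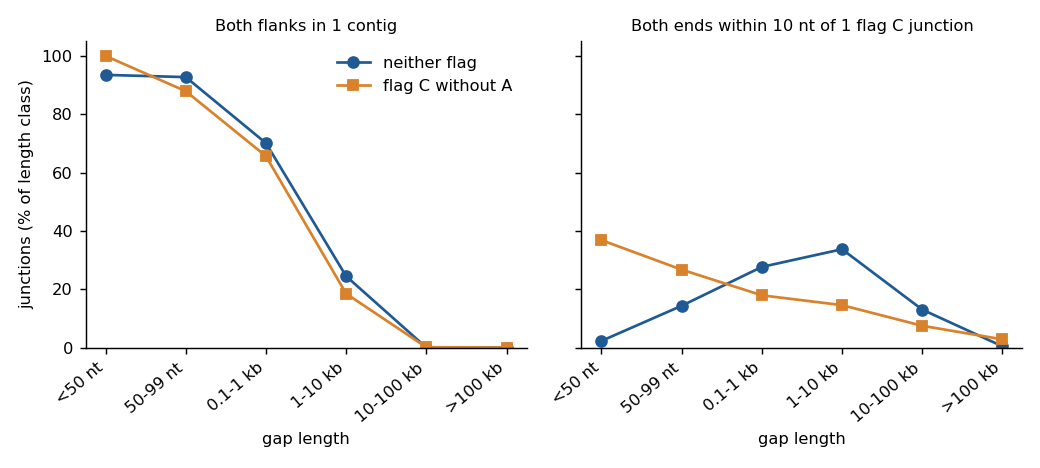
By gap length (x axis), the percentage of junctions with both flanking bases in a single contig (left) and with both ends within 10 nt of a single flag C junction (right), for neither flag (blue circles) and flag C without A (orange squares). The share in a single contig falls from 93.5% under 50 nt to 0 over 10 kb with neither flag, and near copies are most frequent from 1 to 10 kb, at 33.7%.

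Most junctions with neither flag had contigs at both flanks. The rule did not use contigs. Contigs are read coverage over the same libraries, so they are no independent support for a junction. Both flanks lay in same-strand contigs for 4113 of the 4523 (90.9%, 90.1 to 91.8), against 91.4% with flag C and without A and 99.3% with both flags. The lower of the flanking contigs had a median of 6.13 RPKM (quartiles 1.36 and 33.5), against 2.17 (0.696 and 7.76) and 2.21 (0.984 and 5.26). For 94 junctions with neither flag (2.08%) no flank lay in a contig. On the plus strand lay 55.6% of the junctions with neither flag (54.1 to 57.1), against 48.8%, 25.1% and 50.3% of those with flag C without A, flag A without C and both flags.

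Some loci held several junctions with neither flag. Merging spans that overlap on a strand gave 2837 loci, of which 2305 (81.2%) held a single junction. The other flag classes were not merged in this way here. Whether such gathering is particular to junctions with neither flag was not tested. The 103 loci with 5 or more held 1175 junctions (26.0%). The largest, chr2:25414984-25680187 on the plus strand, held 37 junctions with 9238 reads in R1 and 7162 in R2. Of its reads 14916 were those of the second-highest junction of the class, 18 of the 37 were near copies, and 35 lay in a single contig each. A gap of 265204 nt spans the whole locus, so its width is that of 1 junction.

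The next loci held 34 junctions each. The locus chr11:120294850-120745229 on the minus strand had 415 and 600 reads and 10 near copies. The locus chr10:79167325-79611247 on the plus strand had 382 and 279 reads and 22 near copies. The locus chr14:73725127-73784860 on the minus strand had 308 and 171 reads and 18 near copies, and 4 of the 10 most-read junctions of the table lie in it. The fifth locus was of another kind. Its 33 junctions all lay in a single contig of chr7:89919737-89920459 on the plus strand, within 723 nt, with 31 different starts and 23 different ends, 338 reads in R1 and 415 in R2, and no near copy.

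Other dense loci, named after their values were seen, fell on either side of this. At chr17:39980350-39985372 on the plus strand 30 junctions in contigs had 1513 reads in R1 and 449 in R2 and no near copy. At chr16:11144068-11144285 on the plus strand 27 junctions crowded into 218 nt, with 647 and 421 reads. At chr8:19853444-20009094 on the minus strand 27 of 31 junctions were over 10 kb, with a median gap of 127255 nt. At chr15:98762135-98868017 on the minus strand 29 of 32 were over 10 kb, with 167 reads in R1 and 524 in R2, and 8 of the 32 were in R1 or R2 only. At nearly the same place on the plus strand, chr15:98762438-98868067 held 22 junctions, all over 10 kb, with 119 and 378 reads. Whether the same reads were counted at several of these junctions was not tested.

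R1 and R2 held close to equal reads in sum, and single junctions were apart more often than over the whole table. R1 had 49.8% of the reads of junctions with neither flag, 50.4% with flag C and without A, 43.8% with flag A and without C and 46.9% with both flags. After scaling to the reads of each replicate, and among the 1442 junctions with neither flag and 20 reads or more, 280 (19.4%) were over 2-fold higher in R1, where 8.80% of all 118536 such junctions were. Another 170 (11.8%) were over 2-fold higher in R2, where 5.84% of all were. With flag C and without A, 810 of 6341 (12.8%) were higher in R1 and 903 (14.2%) in R2. For R2 the share with neither flag was thus below that of flag C without A. Depth differs between the classes, and at high depth the order against flag C without A, both directions together, was not kept. At 100 reads or more, 68 of 448 (15.2%, 11.98 to 18.8) were apart in either direction, against 18.9% (16.8 to 21.3) with flag C and without A and 7.14% (6.93 to 7.35) with both flags.

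The most uneven junctions were seen in a single replicate at depths far above the limit. In R1 alone were chr19:20705339-20708836 on the plus strand with 432 reads, chr5:34691393-34692550 on the plus strand with 192, and chr4:118146785-118146903 on the minus strand with 105. The chrX:148774937-148776082 junction on the minus strand had 87 reads, all in R1, as did the gap of 31 nt with 90 reads given above. These lay in contigs whose leading flag C junctions had between 33 and 1909 reads. In R2 alone were chr12:105477392-105629812 and chr12:105489829-105629812, on the plus strand, with 355 and 123 reads and the same end. The chr1:172898241-172987951 junction on the minus strand had 63 reads in R2, and chr7:135927675-135927885 and chr7:149672409-149674321 on the plus strand had 62 and 54.

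Every chromosome named in the table had at least 1 junction with neither flag, at uneven density. Per 100 flag C junctions within the limit there were 4.14 on chromosome 14, 3.72 on chromosome 8 and 3.34 on chromosome 2, and 1.97 on chromosome 1 and 1.60 on chromosome 18. The mitochondrial chromosome held 18, with 250 reads in R1 and 432 in R2 and gaps of 41 to 216 nt, and no flag C junction within the limit. The mitochondrial genome of mammals has no introns.

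The gene tables of the same libraries, on the build mm10, show the machinery and the tissue, in TPM of replicate 1 and then replicate 2. All 25 genes of the major spliceosome list were at 1 TPM or more in both, with medians of 40.1 and 33.0 TPM. Highest were U2af2 and Sf1, which recognise the 3′ end and branch point of introns, at 139.8 and 115.5 TPM and at 114.8 and 73.5 TPM, and Snrpa, a protein of the U1 particle, at 131.4 and 107.2 TPM, and Snrpb, a protein of the shared core, at 117 and 115.2 TPM. All 12 genes of the minor spliceosome list were at 1 TPM or more, with medians of 8.73 and 9.17 TPM, led by Zmat5 at 26.8 and 29.8 TPM, Scnm1 at 29.4 and 26.5 TPM, Zcrb1 at 31.8 and 20.7 TPM and Snrnp48 at 23.1 and 18.1 TPM. Of 8 genes of RNA processing outside the spliceosome and the unfolded protein response, Rtcb, the RNA ligase, stood at 199.7 and 139.8 TPM. Xbp1, its target, stood at 128.9 and 92.0 TPM. Ern1, which encodes the nuclease that cuts Xbp1, stood at 54.9 and 40.4 TPM, and Zbtb8os, a cofactor of the ligase, at 25.9 and 21.1 TPM. The adipocyte markers were all present, at medians of 577.6 and 576.5 TPM, and so were 8 markers of the epididymis, at 3689 and 2659 TPM. Single adipocyte markers were further apart, in either direction, such as Lep at 92.1 and 574.8 TPM and Cfd at 6724 and 3717 TPM. So were single epididymis markers, such as Lcn8 at 7811 and 3137 TPM and Crisp1 at 1453 and 2545 TPM. The cells behind single junctions were not determined.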

How the data were processed

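The authors' deposited junction table gave, on mm9 and over both libraries, a name with flags and R1 and R2, the count of reads per junction, an irreproducible discovery rate (a fraction) and a second score of unstated meaning. The deposited contig table gave an RPKM and a rate. The deposited gene tables gave an expected count and TPM per gene on mm10 with GENCODE M4, per the notes deposited with each sample. Neither aligner nor quantifier is named in the labels or files. Expected counts of genes summed to 47106979 in replicate 1 and 54129473 in replicate 2.

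Junctions were split by flags at a rate of 0.1. Gap lengths matched annotated introns as end minus start, so starts are printed with 1 added. Ends were compared on the same strand, contigs at the base beside each end. Python 3.11.15, pandas 2.3.3, numpy 2.4.6, scipy 1.17.1 and matplotlib 3.10.9 were used, and position code was tested on simulated data. No test between groups exists with 1 group, and shares carry exact binomial intervals (95%). The annotation is on mm10, so junctions carry no gene names, and mm9 sequence was not used here. Gene symbols were matched by Ensembl identifier. Members and lists were chosen with earlier results of these data known. Named junctions are the 10 with most reads, the 5 longest, the 5 shortest, 5 on each side of the limit, the 5 fullest loci and the 5 most uneven in each direction among those with 20 or more reads. Alternatives varied the limit, read minimums, end tolerance, strand, contigs, merging and chromosomes.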

Additional observations from a re-analysis of the deposited data

How the results depend on the processing

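Of 56 alternatives, 25 stayed within the counting interval (within 1.5 times for counts) and 31 moved. A share of reads in R1 of 49.64% against 49.83% counted as moved, so the label does not measure the size of a change. The number of junctions, 4523, was 2057 at a limit of 0.01, 204346 with no limit, 1872 with 5 or more reads in each of R1 and R2 and 1072 with 10 or more. Their median reads were 15 at a limit of 0.05, 29 at 0.01 and 72 with 10 or more reads in each, and R1 alone and R2 alone, multiplied by 2, both gave 12. The median gap was 911 nt at 0.01 and 1008 nt with 10 or more reads in each. The share that reused a flag C end was 9.04% at 0.01, 7.18% with 10 or more reads in each, 9.37% against flag C junctions within the limit and 40.8% at a tolerance of 5 nt. The share of near copies was 19.8% at 0.01, 15.9% with 10 or more reads in each, 16.2% at a tolerance of 5 nt and 30.9% at 50 nt. Both flanks lay in contigs in 92.3% at 0.05, 94.9% at 0.01, 96.7% with 10 or more reads in each, 91.9% with at least 1 read in each and 84.7% with contigs within the limit. Gaps under 20 nt were 0% and under 100 nt 18.9%, and gaps over 10 kb were 20.2% and over 1 Mb 0.0221%. The share of reads in R1 was 49.6% at 0.01, 49.6% with 10 or more and with 1 or more reads in each, and 49.1% without the 10 highest junctions. With a minimum of 50 reads 150 of 726 junctions were over 2-fold apart, against 450 of 1442 with the minimum of 20 reads. Fewer junctions were counted at the higher minimum, so the fall from 450 to 150 is not a fall in the share alone. Alternatives with at least 1 read in each replicate, without the 10 highest junctions, without gaps over 100 kb and on the 2-fold rule were chosen after seeing the data. No paired analysis was possible because there is a single group.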
